A study of Mus musculus with 12 samples.

Results

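*Sorbs2* and *Sorbs3*, 2 of the 51490 genes in the deposited table, encode adaptor proteins of the Sorbs family. The pair was selected on measured values of these data, because *Sorbs2* transcript levels were strongly higher in the cell line with less *Srsf3*. The members were therefore chosen by the *Srsf3* contrast of *Sorbs2*, and that contrast is described below without a test.

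Sorbs proteins carry an amino-terminal sorbin homology (SoHo) domain and several carboxy-terminal SH3 domains, which bind proline-rich partners. Through them they link vinculin, actin regulators, and ubiquitin ligases of the Cbl family at focal adhesions, along stress fibers, and at the Z-discs of muscle. Sorbs2, also called ArgBP2, was described as a partner of the Abl kinases, while Sorbs3, also called vinexin, was described as a partner of vinculin. Srsf3 is an SR protein that binds RNA and takes part in splicing, export, and other steps of RNA processing.

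The samples came from immortalized mouse embryonic palatal mesenchyme (iMEPM) cells, a line from a male *Cdkn2a*-/- embryo, so that all 4 groups lack *Cdkn2a*. By lentivirus, these cells received either a scramble shRNA (scramble) or an shRNA against the 3’ UTR of *Srsf3* (shSrsf3), followed by puromycin selection and a sort for the brightest GFP-positive cells. Each shRNA was represented by 1 stable line, and an effect of the line cannot be told apart from an effect of the shRNA. Serum-starved cultures were either unstimulated (-PDGF-AA) or given 10 ng/mL PDGF-AA, a ligand of PDGFRα, for 1 hr (+PDGF-AA), with 3 samples in each of the 4 groups. The methods call the samples biological replicates, but no label ties a replicate number to a day or culture.

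*Srsf3* itself had 199 to 212 CPM in scramble -PDGF-AA samples and 161 to 164 CPM in shSrsf3 -PDGF-AA samples (CPM, expected counts scaled to the size of each library), and 215 to 231 and 161 to 169.6 CPM with ligand. The groups did not overlap in either condition, and the log2 fold changes were -0.34 ± 0.0379 and -0.43 ± 0.0381 (SE, n = 3 per group; edgeR adjusted p = 7.95e-06 and 9.54e-07). By western blot, the authors reported a larger decrease of Srsf3 protein in the shSrsf3 line than this difference in RNA. Total expected counts were 30958966 to 76123359 per sample. All shSrsf3 +PDGF-AA samples (at most 37334732) were shallower than all scramble +PDGF-AA samples (at least 57313132). Across the 15037 genes with enough counts to test, 22.2% rose and 23.7% fell in shSrsf3 cells without ligand, and 20.3% rose and 20.7% fell with ligand (adjusted p of 0.05 or less). Calls for single genes are read against these shares of the tested genes.

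In the GENCODE M39 annotation of the mouse genome (GRCm39), *Sorbs2* (ENSMUSG00000031626.20) lay on the plus strand at chr8:45960540-46282007, with 156 annotated transcripts, 137 of them protein coding. Its coding transcripts began at 21 positions that spanned 298150 bases. *Sorbs3* (ENSMUSG00000022091.8) lay on the minus strand at chr14:70417916-70449438, with 32 transcripts, 13 of them coding, whose 12 start positions spanned 7366 bases. The authors quantified with an earlier GENCODE release, so that the transcripts they summed may differ from these. The deposited values are sums over all transcripts of a gene, so that exons and starts cannot be told apart in them. Little of their sequence was shared with other genes: 0.157% of the 31-base words of *Sorbs2* transcripts and 0% of those of *Sorbs3* occurred in another gene.

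The upstream sequences of *Sorbs2* are shown because this gene had the larger difference of the pair and because its counts sum over several starts. RefSeq gave 3 windows of 250 bases before a *Sorbs2* start in the GRCm38.p6 build, which is not the build of the deposited data. Starts 2 and 3 lay 119963 and 154205 bases after the first. Capitals mark the CCAAT box, on either strand, the only one of 7 searched motifs present in these windows.
Window 1, chr8:45507538-45507787, plus strand: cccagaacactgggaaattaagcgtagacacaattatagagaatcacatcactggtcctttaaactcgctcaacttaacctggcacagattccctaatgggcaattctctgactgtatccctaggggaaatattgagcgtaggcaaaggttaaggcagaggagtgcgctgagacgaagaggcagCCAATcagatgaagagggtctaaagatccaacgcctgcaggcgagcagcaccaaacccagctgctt
Window 2, chr8:45627501-45627750, plus strand: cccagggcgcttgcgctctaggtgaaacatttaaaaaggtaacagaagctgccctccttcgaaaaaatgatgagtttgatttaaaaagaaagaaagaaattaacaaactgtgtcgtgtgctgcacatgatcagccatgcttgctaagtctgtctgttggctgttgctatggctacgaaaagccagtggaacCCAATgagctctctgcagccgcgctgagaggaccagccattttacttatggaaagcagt
Window 3, chr8:45661743-45661992, plus strand: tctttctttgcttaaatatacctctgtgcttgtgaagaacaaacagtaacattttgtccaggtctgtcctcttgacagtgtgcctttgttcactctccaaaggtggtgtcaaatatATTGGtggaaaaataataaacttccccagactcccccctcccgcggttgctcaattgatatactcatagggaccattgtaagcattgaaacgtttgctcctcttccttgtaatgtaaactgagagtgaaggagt

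In windows 1 to 3 the CCAAT box began 66, 59, and 134 bases before the start, in window 3 as its reverse complement. Of all 32851 RefSeq windows of this length, 33.8% held this motif on either strand. The others searched on both strands were TATAAA (12.4% of all windows), CATTCC (12.6%), the AP-1 motif TGANTCA (6.75%), GGGCGG (32.7%), CACGTG (6.02%), and the CArG box (1.47%), and overlaps between motifs in other windows were not removed. The GC content was 48.8%, 45.6%, and 41.6%, against a median of 52.4% over all windows, and the number of CpG pairs was 7, 7, and 3 against a median of 6. Which of these starts was in use was not analysed here.

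*Sorbs2* levels were low and even in scramble cells and several-fold higher in every shSrsf3 sample. Without ligand, the 3 scramble samples had 36.7, 34.3, and 35.0 CPM and the 3 shSrsf3 samples had 132, 132, and 138 CPM. With ligand, the scramble samples had 36.0, 37.2, and 38.5 CPM and the shSrsf3 samples 145, 144, and 161 CPM. Every shSrsf3 sample was above every scramble sample. In these bulk samples, fewer cells of a type and less RNA per cell cannot be told apart. The means were 35.3 ± 1.21 and 134 ± 3.05 CPM without ligand and 37.2 ± 1.25 and 149.9 ± 9.34 CPM with ligand (SD, n = 3). The ratio of the means was 3.798 without ligand and 4.03 with ligand, and the fitted log2 fold changes were 1.93 ± 0.0496 and 2.01 ± 0.0495 (SE).

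By these log2 fold changes *Sorbs2* ranked 113th without ligand and 111th with ligand from the highest of the 15037 tested genes. For reference, 2.99% of tested genes without ligand and 2.85% with ligand rose by 2-fold or more at an adjusted p of 0.05 or less. In either direction, 5.75% and 5.42% differed by as much. Since this contrast selected the gene, these values are a description only. The expected counts behind them ran from 1411 to 10211 per sample. Under all 21 other settings, each sample left out included, the log2 fold change was 1.91 to 1.96 without and 1.96 to 2.04 with ligand. These settings reuse the samples that selected the gene, so that this range is also a description.

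**Figure D1:**
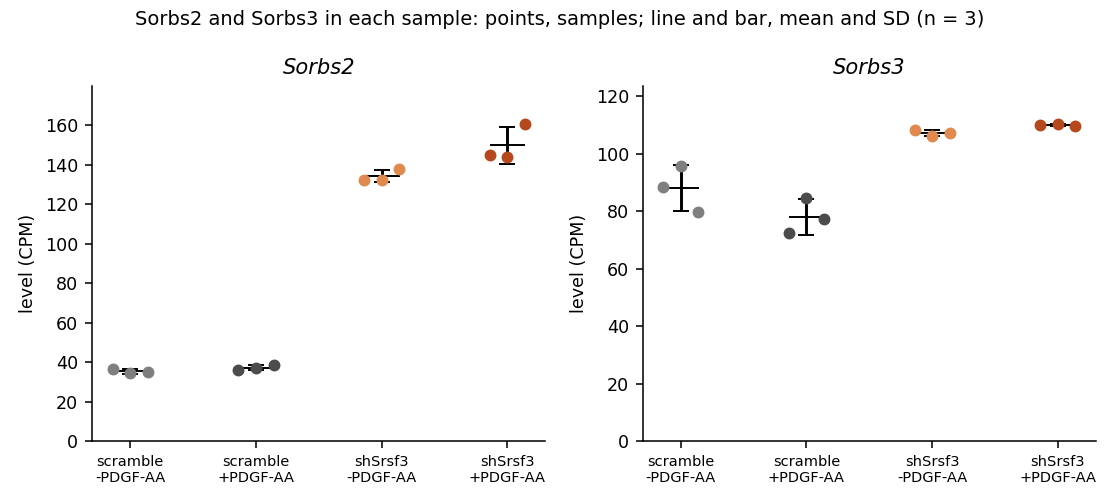
Levels of *Sorbs2* and *Sorbs3* in CPM (vertical axes, from 0) in the 4 groups (horizontal axis), with 1 point per sample and the mean and SD of each group (n = 3). *Sorbs2* sits at 34.3 to 38.5 CPM in scramble samples and at 132 to 161 CPM in shSrsf3 samples, while the differences of *Sorbs3* are far smaller.

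*Sorbs3* also rose in shSrsf3 cells, in both ligand conditions, but by less than 1.5-fold. Without ligand, the scramble samples had 88.4, 95.7, and 79.7 CPM and the shSrsf3 samples 108, 106, and 107 CPM. With ligand, the scramble samples had 72.3, 84.4, and 77.1 CPM and the shSrsf3 samples 110.1, 110.3, and 109.6 CPM. All shSrsf3 samples were above all scramble samples of the same condition, and the scramble samples were the more variable. The group means were 87.9 ± 7.98 and 107 ± 1.125 CPM without ligand and 77.9 ± 6.13 and 110.0 ± 0.353 CPM with ligand (SD, n = 3).

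The *Sorbs3* log2 fold change was 0.29 ± 0.0626 without ligand (SE, 1.22-fold, 95% interval 1.11 to 1.34; edgeR adjusted p = 0.00216). With ligand it was 0.50 ± 0.0629 (1.41-fold, interval 1.29 to 1.55; edgeR adjusted p = 2.70e-05). Averaged over both conditions it was 0.39 ± 0.0443 (edgeR adjusted p = 4.99e-06). A 2-sided exact permutation test with shRNA labels exchanged within each ligand condition gave p = 0.005, the smallest that its 400 arrangements allow. With 3 samples against 3 the exact test cannot go below 0.1, and it gave 0.1 in each condition. *Sorbs3* ranked 2907th and 1660th of the 15037 tested genes, so that many genes differed by more.

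The rise of *Sorbs3* was as large at equal depth, with log2 fold changes of 0.28 and 0.51 after all libraries were thinned to the smallest total. In the study's methods, 3 scramble samples had a lower share of mapped reads than the rest, namely -PDGF-AA replicates 1 and 2 and +PDGF-AA replicate 2. These were also the scramble samples with the highest *Sorbs3* level of their groups. Without these 3 samples the differences were 0.42 (edgeR adjusted p = 1.95e-05) and 0.56 (edgeR adjusted p = 1.45e-07).

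**Figure D2:**
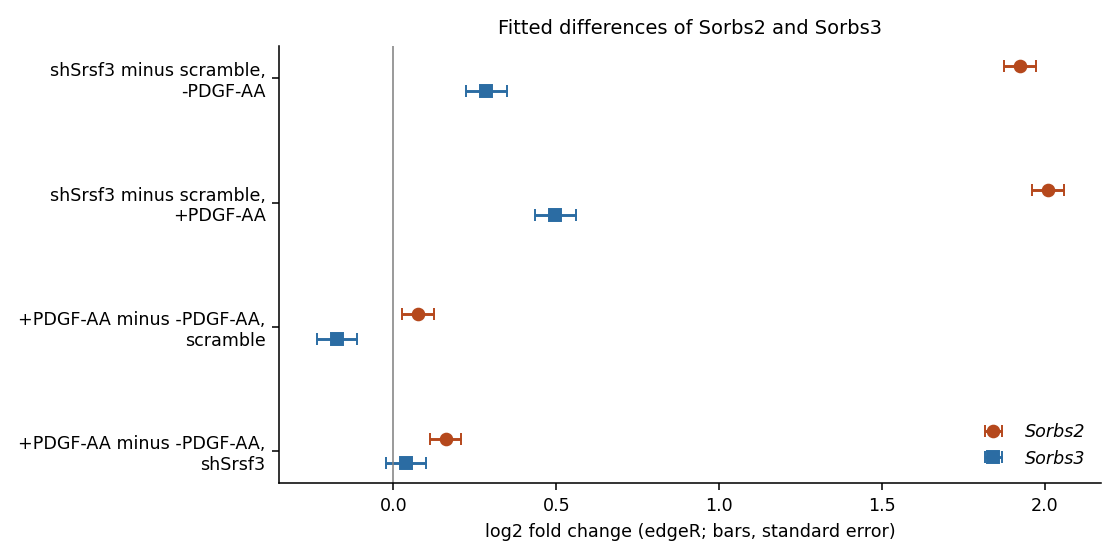
Fitted log2 fold changes (horizontal axis) of *Sorbs2* and *Sorbs3* for the shSrsf3 and ligand contrasts (vertical axis), with standard errors as bars (n = 3 samples per group). *Sorbs2* lies at 1.93 and 2.01 between cell lines, *Sorbs3* at 0.29 and 0.50, and all ligand contrasts lie within 0.2 of 0.

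To compare both genes with each other, CPM was divided by the length of the longest annotated transcript (CPM per kb). On this scale *Sorbs3* was above *Sorbs2* in all 4 groups, and their sample ranges did not overlap in any group. In scramble -PDGF-AA samples the means were 18.6 ± 1.69 CPM per kb for *Sorbs3* and 4.44 ± 0.153 CPM per kb for *Sorbs2* (SD, n = 3). In shSrsf3 -PDGF-AA samples they were 22.6 ± 0.238 and 16.9 ± 0.384 CPM per kb, so that the genes stood much closer together.

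*Sorbs2* made up 19.4% ± 1.60 of the summed level per length of *Sorbs2* and *Sorbs3* in scramble -PDGF-AA and 22.2% ± 1.22 in scramble +PDGF-AA samples (SD, n = 3). In shSrsf3 samples its share was 42.7% ± 0.621 without and 44.8% ± 1.60 with ligand, and *Sorbs3* made up the rest. *Sorbs3* therefore remained the more abundant transcript of the pair on this scale in every group. The summed level was 23.02 ± 1.66 and 21.1 ± 1.36 CPM per kb in scramble samples and 39.5 ± 0.441 and 42.1 ± 1.10 CPM per kb in shSrsf3 samples. These shares include the contrast that selected *Sorbs2* and were not tested.

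**Figure D3:**
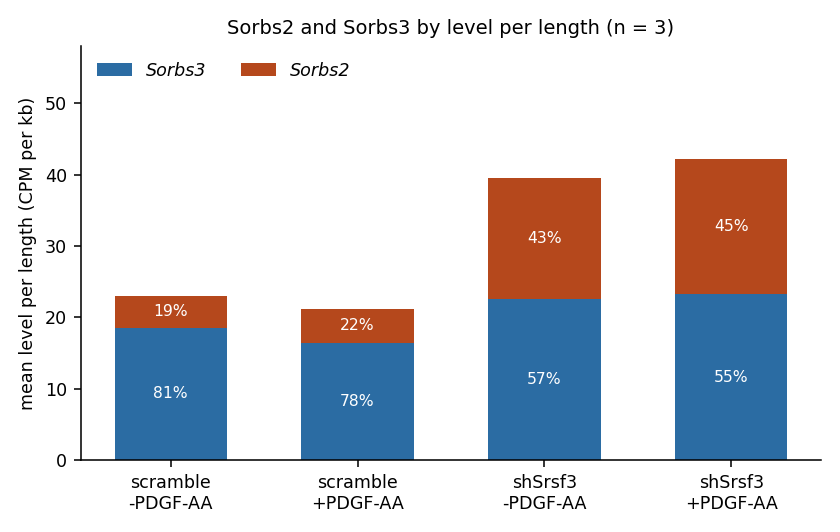
Mean level per length (vertical axis, CPM per kb of the longest transcript, from 0) of *Sorbs3* and *Sorbs2*, stacked for each of the 4 groups (horizontal axis, n = 3), with the mean share of each gene written in its bar. The *Sorbs2* part is 19.4% and 22.2% in scramble and 42.7% and 44.8% in shSrsf3 samples, on a sum that goes from 23.02 and 21.1 to 39.5 and 42.1 CPM per kb.

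The ligand contrasts were not used to select the members. After 1 hr of PDGF-AA, *Sorbs2* was 1.05-fold its unstimulated level in scramble cells (log2 fold change 0.08 ± 0.0491; edgeR adjusted p = 0.446), and the ranges of the groups overlapped. In shSrsf3 cells it was 1.118-fold (0.16 ± 0.0472, 95% interval 1.04 to 1.20; edgeR adjusted p = 0.204), and all stimulated samples were above all unstimulated ones. The exact permutation p of this separation was 0.1, the smallest that 3 samples against 3 allow. Of all tested genes, 4.04% in scramble and 0.565% in shSrsf3 cells passed in these contrasts, and *Sorbs2* was not among them.

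Averaged over both lines, the *Sorbs2* difference was 0.12 ± 0.0340 on the log2 scale (edgeR adjusted p = 0.0602; exact permutation p = 0.01). It was thus just outside the threshold, and passed it under 6 of 20 other settings, one of which left out scramble -PDGF-AA replicate 1 (0.13, edgeR adjusted p = 0.0497). The adjusted p over these settings ran from 0.0117 to 0.163. The difference between the ligand effects of the lines was 0.08 ± 0.0681 (edgeR adjusted p = 0.882), with a 95% interval of -0.06 to 0.23. With shSrsf3 +PDGF-AA replicate 3 left out it was 0.029, and with scramble -PDGF-AA replicate 1 left out it was 0.056.

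*Sorbs3* was 0.887-fold its unstimulated level in stimulated scramble cells (log2 fold change -0.17 ± 0.0627; edgeR adjusted p = 0.157), with overlapping groups. This contrast passed without scramble -PDGF-AA replicate 3 (-0.23, edgeR adjusted p = 0.0212) and also when scramble +PDGF-AA replicate 2 was left out (-0.23, edgeR adjusted p = 0.0496). It was smaller without scramble -PDGF-AA replicate 2 (-0.107, edgeR adjusted p = 0.492) and without the 3 samples of lower mapping (-0.095, edgeR adjusted p = 0.379). In shSrsf3 cells it was 1.03-fold (0.04 ± 0.0626; edgeR adjusted p = 0.920). The 3 stimulated samples, at 109.6 to 110.3 CPM, were all just above the unstimulated ones, at 106 to 108 CPM. Here too the exact permutation p was 0.1, the smallest that 3 samples against 3 allow. Averaged over both lines the difference was -0.07 ± 0.0443 (edgeR adjusted p = 0.450; exact permutation p = 0.31). It was -0.034 without scramble -PDGF-AA replicate 2, -0.042 without scramble +PDGF-AA replicate 1, and -0.028 without the 3 samples of lower mapping.

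The difference between the *Sorbs3* ligand effects of the lines, which is also that between its shRNA effects, was 0.21 ± 0.0886 (95% interval 0.02 to 0.40; edgeR adjusted p = 0.874). It did not pass after adjustment, and 0.0133% of tested genes did. Without the 3 samples of lower mapping it was 0.13. By mean CPM, the order of the groups was therefore scramble -PDGF-AA, scramble +PDGF-AA, shSrsf3 -PDGF-AA, and shSrsf3 +PDGF-AA for *Sorbs2*, with overlap between the first pair alone. For *Sorbs3* the scramble groups stood in the reverse order and overlapped, and both shSrsf3 groups were above them.

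Genes of proteins that bind Sorbs proteins were examined next, with the counts of passed genes read beside those of all tested genes. Of 27 such partners 26 were tested, and in shSrsf3 cells 6 rose and 8 fell without ligand while 6 rose and 7 fell with ligand. The median log2 fold change was -0.01 without and -0.05 with ligand, against -0.02 and -0.01 over all tested genes. Of all tested genes, 22.2% rose and 23.7% fell without ligand, and 20.3% rose and 20.7% fell with ligand. *Abl2*, an Abl family kinase, rose from 56.4 to 80.6 CPM without ligand (log2 fold change 0.51) and from 73.4 to 92.1 CPM with ligand (0.33). *Dnm1*, a dynamin of membrane scission, rose from 174 to 242 and from 166 to 234 CPM (0.48 and 0.50). The adjusted p of *Abl2* and *Dnm1* by edgeR was at most 1.55e-04. *Abl1*, the other Abl kinase on the list, fell from 146 to 127.5 and from 142 to 121 CPM (-0.20 and -0.23, edgeR adjusted p = 8.81e-04 and 2.79e-04). It was named after its values were seen.

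*Cblb*, a ubiquitin ligase, fell from 25.1 to 19.9 and from 22.9 to 18.6 CPM (-0.33 and -0.30; edgeR adjusted p = 1.26e-04 and 3.86e-04). *Dlgap3*, a postsynaptic scaffold protein, rose but remained under 0.5 CPM on average (1.41 and 1.66; edgeR adjusted p = 0.00339 and 0.00303). The gene of vinculin itself, *Vcl*, had 1786 and 1876 CPM without and 1942 and 1843 CPM with ligand in scramble and shSrsf3 cells, and did not pass (edgeR adjusted p = 0.0845 and 0.0731). *Vcl* was named after its values were seen. *Actn2*, the muscle alpha-actinin, had at most 4 counts in any sample and was not tested.

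Of 35 focal adhesion genes, all tested, 16 rose and 3 fell without ligand, and 13 rose and 7 fell with ligand. *Vcl*, *Pxn*, *Ptk2*, and *Actn1* are also on the partner list, so that the counts of these lists share genes. Their median log2 fold change was 0.09 and 0.04, against -0.02 and -0.01 over all tested genes. Of the latter, 22.2% and 20.3% rose and 23.7% and 20.7% fell. *Parvb*, which encodes the integrin-linked adaptor beta-parvin, rose from 0.913 to 5.42 CPM and from 0.949 to 5.69 CPM (2.56 and 2.59; edgeR adjusted p = 6.86e-09 and 5.61e-09). The tensins *Tns1* and *Tns2*, which tie integrins to actin, rose by 0.50 each without ligand and by 0.55 and 0.73 with ligand. The tensin *Tns3*, also on this list, fell from 215 to 180 and from 218 to 175.5 CPM (-0.26 and -0.31, edgeR adjusted p = 0.00248 and 6.21e-04). It was named after its values were seen. *Git1*, an adaptor of Arf signaling, rose by 0.38 and 0.39.

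Of 28 other SH3 adaptor genes 24 were tested, and 10 rose and 3 fell in each condition, with a median of 0.06 and 0.08. Over all tested genes 22.2% and 20.3% rose and 23.7% and 20.7% fell. *Sh3pxd2a*, a scaffold of podosomes also called Tks5, rose from 338 to 461 and from 349 to 468 CPM (0.45 and 0.42). *Bin1*, which senses membrane curvature, rose by 0.43 and 0.35, and *Sh3rf1*, a ubiquitin ligase, rose by 0.31 and 0.37. *Sh3rf2* had only 1.13 to 2.33 CPM on average and rose by 0.42 and 1.04. *Grap2*, an adaptor of T cells, had no count in any sample. The edgeR adjusted p of these 4 genes that rose was at most 0.0317.

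Of 34 genes of Z-disc and stress fiber proteins 25 were tested, with 9 higher and 5 lower without ligand and 10 higher and 6 lower with ligand. The median was -0.01 and 0.09. *Actn2* and *Palld* are also on the partner list, and *Zyx* is also on the focal adhesion list. Over all tested genes 22.2% and 20.3% rose and 23.7% and 20.7% fell. *Nebl*, which encodes the nebulin relative nebulette, fell from 1.32 to 0.420 CPM and from 1.395 to 0.441 CPM (-1.61 and -1.64; edgeR adjusted p = 1.11e-04 and 1.68e-04). *Ankrd1*, a titin-binding ankyrin repeat protein, fell from 259 to 171 and from 308 to 173 CPM (-0.60 and -0.83). *Neb* and *Des*, which encode nebulin and desmin, rose by 0.84 and 1.21 without and 0.73 and 1.34 with ligand, from at most 1.90 CPM. *Xirp1* had no count in any sample, and 9 of the 34 genes, including *Myoz2*, *Tcap*, and *Csrp3* of the muscle Z-disc, had too few counts to test.

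Upon stimulation, 2 partners passed in scramble cells, *Abl2* (0.38, edgeR adjusted p = 8.67e-04) and the phosphatase gene *Ptpn12* (0.15, edgeR adjusted p = 0.0445), and no partner passed in shSrsf3 cells. In each of the other 3 lists 1 gene passed in scramble cells, namely *Nedd9*, *Sh3bp4*, and *Flnc*, all higher with ligand. In shSrsf3 cells the focal adhesion gene *Lims2* passed, and was lower with ligand (-0.34, edgeR adjusted p = 0.0112). These 6 genes were named after their values were seen, because so few passed. Over all tested genes 4.04% passed in scramble and 0.565% in shSrsf3 cells.

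**Figure D4:**
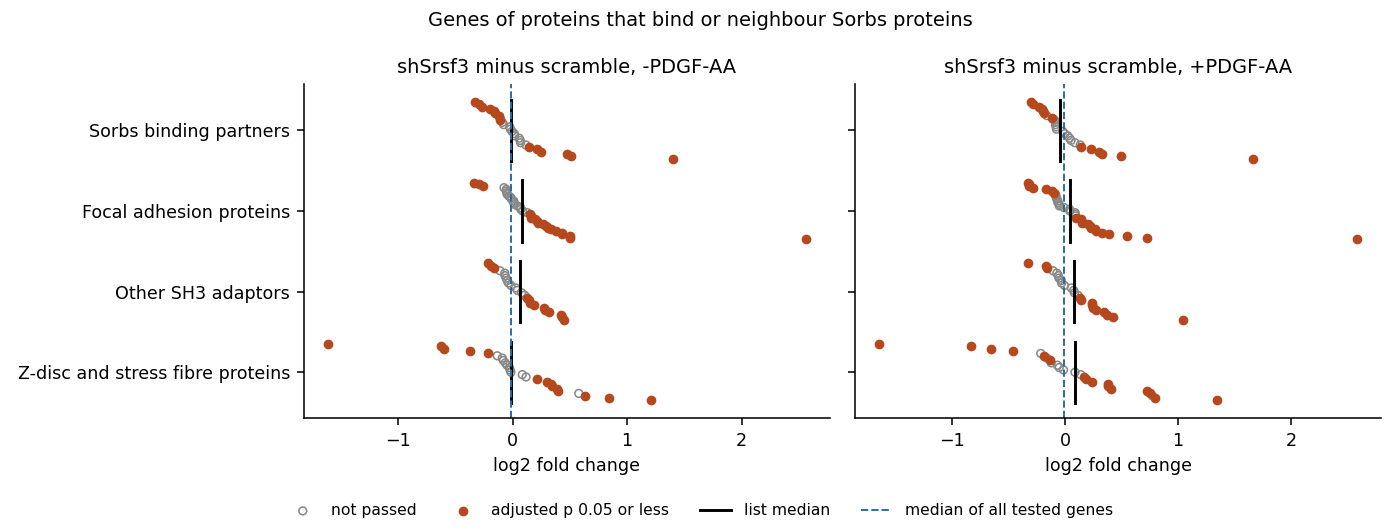
Log2 fold changes between shSrsf3 and scramble cells (horizontal axes) of the tested genes in the 4 lists (vertical axis), without ligand on the left and with ligand on the right, with 1 point per gene, filled where the adjusted p was 0.05 or less. Black lines are the list medians, between -0.05 and 0.09, and the dashed line is the median of all tested genes, at -0.02 and -0.01.

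Next, the genes around each member were examined, since genome position was not part of the selection. Of 51 annotated genes within 500 kb of *Sorbs2* 12 were tested, and 4 rose and 3 fell in shSrsf3 cells without ligand, and 3 rose and 2 fell with ligand. Their median log2 fold change was -0.15 and 0.03. Over all tested genes 22.2% and 20.3% rose and 23.7% and 20.7% fell. *Gm45457*, annotated as a transcript to be checked by experiment (TEC) on the same strand within *Sorbs2*, had the largest increase (3.23 and 2.57). It had at most 32 counts in a sample and is among the genes counted as risen in both conditions. Reads of *Gm45457* and *Sorbs2* cannot be told apart by strand. Its values may therefore include the contrast that selected *Sorbs2* and are a description only. Of genes outside *Sorbs2* that passed, none within this window rose by more than 0.33. *Actg-ps1*, 400 kb away, was at 0.48 with ligand but did not pass. *Snx25*, 204 kb away and encoding a sorting nexin, rose from 22.5 to 28.3 and from 21.6 to 26.4 CPM (0.33 and 0.29), and *Fam149a*, 125 kb away, rose by 0.25 in each condition.

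*Cfap97*, 323 kb from *Sorbs2*, fell by 0.35 and 0.18 on the log2 scale. *Fat1*, an atypical cadherin 455 kb away, rose without ligand (0.29, edgeR adjusted p = 0.00956) but did not pass with ligand (0.08, adjusted p = 0.463). *Cyp4v3* and *Ufsp2* fell in the unstimulated comparison (-0.27 and -0.18) and did not pass in the other, while *Tlr3*, the receptor for double-stranded RNA, fell in the stimulated one (-0.45) and did not pass in the other. Neither *Pdlim3*, the nearest tested coding gene at 56.4 kb and at most 0.310 CPM on average, nor *Slc25a4*, *Ankrd37*, or *Actg-ps1* passed in either condition. The antisense gene *Sorbs2os*, which overlaps *Sorbs2*, had no count in any sample.

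Of 64 annotated genes within 500 kb of *Sorbs3* 25 were tested, and 7 rose and 4 fell without ligand while 7 rose and 7 fell with ligand. Their median was 0.01 and 0.02. Over all tested genes 22.2% and 20.3% rose and 23.7% and 20.7% fell. The nearest tested coding genes on either side of *Sorbs3* both rose: *Pdlim2*, 2.79 kb away and encoding an actin-binding PDZ and LIM protein, went from 67.1 to 85.2 and from 64.8 to 84.4 CPM (0.35 and 0.38; edgeR adjusted p = 2.47e-05 and 1.11e-05). *Ppp3cc*, 5.05 kb away and encoding a catalytic subunit of calcineurin, went from 7.27 to 11.5 and from 7.98 to 12.3 CPM (0.67 and 0.62; edgeR adjusted p = 8.93e-06 and 1.8e-05). *9930012K11Rik*, 20.9 kb away, fell (-0.55 and -0.49). *Tnfrsf10b*, *Slc39a14*, *Reep4*, and *Lgi3* rose and *Rhobtb2* and *Hr* fell in both conditions.

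The largest of these differences were those of *Lgi3* (1.37 and 1.32, at most 0.860 CPM on average) and *Hr*, a nuclear corepressor, from 9.54 to 3.57 and from 9.36 to 3.598 CPM (-1.41 and -1.38). *Chmp7* rose and *Loxl2* fell without ligand and did not pass with ligand. *Nudt18* rose, and *Egr3*, *Ccar2*, *Polr3d*, and *Fhip2b* fell, with ligand and did not pass without. *Egr3*, an immediate early transcription factor 97.8 kb from *Sorbs3*, was the one neighbor of either member that passed upon stimulation, rising from 12.5 to 66.2 CPM in scramble cells (2.41; edgeR adjusted p = 3.08e-07) and from 13.3 to 36.6 CPM in shSrsf3 cells (1.48; edgeR adjusted p = 1.06e-04). *R3hcc1*, *Bin3*, *Gm49417*, *Piwil2*, *Phyhip*, *Bmp1*, *Dmtn*, *Npm2*, and *Xpo7* did not pass between the lines. *Gm49417* overlaps *Sorbs3* on the opposite strand, with 7 to 24 counts in a sample where *Sorbs3* had 3403 to 8359.

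**Figure D5:**
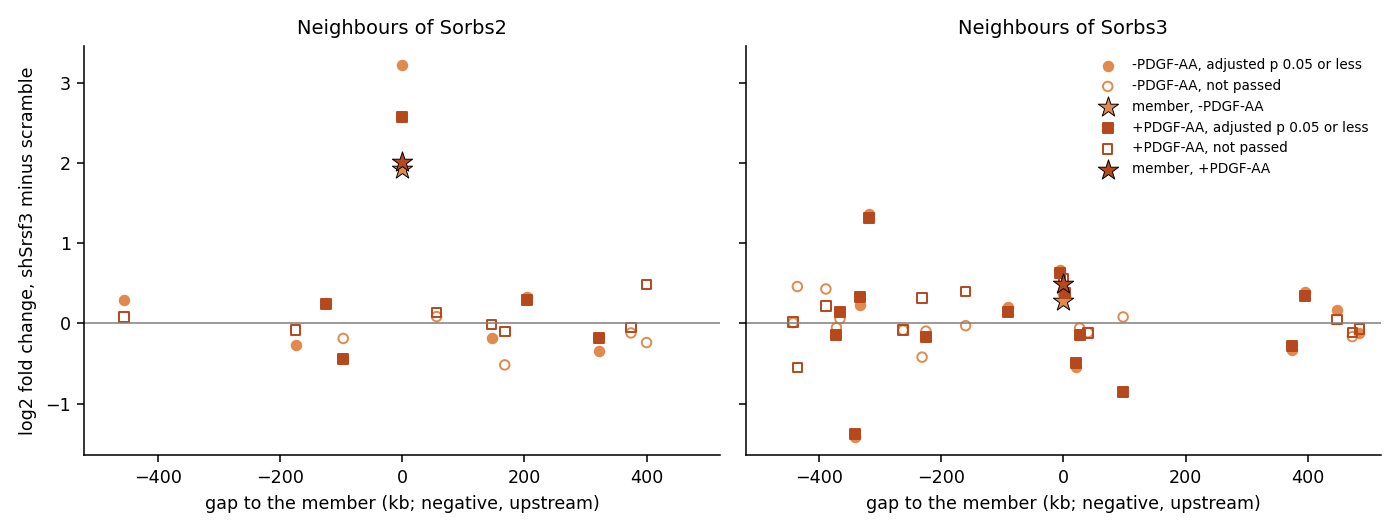
Log2 fold changes between shSrsf3 and scramble cells (vertical axis) of tested genes within 500 kb of *Sorbs2* (left) and *Sorbs3* (right) by their gap to the member in kb (horizontal axes, negative upstream), with circles for -PDGF-AA, squares for +PDGF-AA, filled symbols for an adjusted p of 0.05 or less, and stars for the member. Near *Sorbs2* only *Gm45457*, which lies within it, is above 0.5, while near *Sorbs3* the nearby *Ppp3cc* and *Pdlim2* lie at 0.67 and 0.35 without ligand.

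The genes whose pattern was most like that of each member were found by the Pearson correlation of log2 CPM over the 12 samples, among 12261 other genes with a mean of at least 50 counts. The samples fall into the lines, share their libraries, and chose *Sorbs2*, so that r is a description of likeness. For *Sorbs2* they were *Dhrs9*, *Emilin2*, *Sema3a*, *Olfml2b*, and *Fndc3c1* (r from 0.997 to 0.998). *Emilin2*, an extracellular matrix glycoprotein, had 60.9, 61.2, 152, and 162 CPM in scramble -PDGF-AA, scramble +PDGF-AA, shSrsf3 -PDGF-AA, and shSrsf3 +PDGF-AA samples, and *Sema3a*, a secreted guidance cue, had 203, 210.3, 378, and 399.8 CPM.

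For *Sorbs3* the genes were *2200002D01Rik*, *Mapk3*, *Gm44710*, *Smarcc2*, and *Sdr39u1* (r from 0.977 to 0.987). *Mapk3*, which encodes the kinase Erk1, had 110.3, 101, 132, and 132 CPM in the same order of groups. By Spearman's rho, 0 of the 5 genes named for *Sorbs2* and 2 of the 5 named for *Sorbs3*, *2200002D01Rik* and *Gm44710*, were among the 5 highest.

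The labelled cell type was checked with marker genes. All 10 palatal mesenchyme markers were tested. In shSrsf3 cells 2 were higher and 5 lower without ligand, and 2 higher and 4 lower with ligand. Over all tested genes 22.2% and 20.3% rose and 23.7% and 20.7% fell. The markers summed to 22326 to 23857 CPM over all samples, most of it *Col1a1* (means of 17214 to 18235 CPM) and *Vim* (4327 to 5160 CPM). The group means of *Osr2*, *Msx1*, and *Shox2* were at most 5.23, 1.705, and 13.0 CPM, so that the sum hardly reflects them. In shSrsf3 cells *Shox2* rose (1.76 and 2.04) while *Pdgfra* (-0.53 and -0.36), *Msx1* (-0.93 and -1.10), and *Runx2* (-0.39 and -0.38) fell.

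Of the striated muscle markers *Myod1* had no count and 5 of 7 genes had at most 3 counts. The sum of the 7 was 2.22 to 2.76, 1.79 to 2.25, 1.23 to 1.72, and 1.47 to 1.99 CPM in scramble -PDGF-AA, scramble +PDGF-AA, shSrsf3 -PDGF-AA, and shSrsf3 +PDGF-AA samples. *Tnnt2*, which encodes a cardiac troponin T and made up most of it, fell from 2.38 to 1.07 CPM without ligand and from 1.83 to 1.24 CPM with ligand (-1.13 and -0.57; edgeR adjusted p = 1.29e-04 and 0.0215), while *Des*, also on this list, rose as given above. Of the 4 smooth muscle markers, *Cnn1* (0.96 in both conditions), *Myh11* (1.10 and 0.98), and *Tagln* (0.40 and 0.27) rose and *Acta2* fell (-0.31 and -0.32). *Acta2* also serves as a marker of contractile fibroblasts. The summed level of the 4 smooth muscle markers was 7819 to 8924, 8106 to 8313, 7468 to 7890, and 7209 to 7221 CPM in scramble -PDGF-AA, scramble +PDGF-AA, shSrsf3 -PDGF-AA, and shSrsf3 +PDGF-AA samples. Most of this sum was *Acta2* (means of 5448 to 7157 CPM), so that it does not show the rise of the other 3 genes.

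The markers of other cell types were scarcer. In the same order of groups, the 4 endothelium markers summed to 30.5 to 33.3, 30.96 to 34.6, 22.2 to 22.6, and 19.1 to 22.2 CPM, most of it *Tek*, which fell (-0.61 and -0.84). *Cdh5* (2.33 and 2.82) and *Kdr* (1.24 and 0.91) rose, but remained at group means of at most 1.485 and 0.635 CPM. *Pecam1*, also on this list, did not pass in either condition. The 7 epithelium markers summed to 4.78 to 6.21, 4.98 to 6.19, 3.31 to 3.58, and 2.91 to 4.25 CPM, and *Cdh1* fell (-2.24 and -1.95). Among the 5 neuron and glia markers *Sox10* and *Snap25* had no count and *Tubb3* fell (-0.58 and -0.50). These 5 genes summed to 250 to 276, 268 to 282, 239 to 248, and 233 to 248 CPM, most of it *Map2* (means of 218 to 242 CPM). The 3 blood markers summed to at most 0.139 CPM. The part of these differences in the levels of *Sorbs2* and *Sorbs3* was not tested.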

How the data were processed

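RNA-seq of polyA-selected RNA was performed by the authors on 12 samples, 3 in each of 4 groups, which were assigned by their labels. The authors quantified transcripts with Salmon (v1.4.0, GRCm39, per the submitters' processing notes and methods) and deposited expected counts, estimated read pairs summed per gene and not scaled to library size. These were rounded to whole numbers. Transcript lengths per sample and reads per exon were not used here. Totals were 30958966 to 76123359 per sample, and 16.2% of values were not whole.

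Genes were filtered with filterByExpr (minimum count 10) in edgeR 4.0.16, scaled by TMM factors, and tested with the quasi-likelihood test in 1 model with a mean per group, and p-values were adjusted by the Benjamini-Hochberg method over 15037 genes. Genes passed at an adjusted p of 0.05 or less. The scripts were tested on simulated counts. Exact permutation tests used log2 CPM, and 5 of them exchanged labels within a ligand condition or line. p-values measure only the spread between samples, which may be technical. Members, gene lists, and tests were chosen with earlier results of these data known. In each list up to 4 genes were named, those with the largest mean difference among genes that passed in both shSrsf3 contrasts with the same sign. Genes at 0, all tested neighbors within 500 kb, and the 5 most similar genes were also named; 1 gene covered by this rule is not reported here. Lists held Sorbs binding partners, focal adhesion, other SH3 adaptor, and Z-disc and stress fiber genes, and markers of palatal mesenchyme, epithelium, endothelium, striated muscle, smooth muscle, neurons and glia, and blood. Positions and transcript lengths came from GENCODE M39 (GRCm39) by gene symbol, a later release than that used by the authors. Alternatives were DESeq2 1.42.0, limma 3.58.1 with voom, other scalings and filters, a replicate block, subsets of samples, and equal depth. Software was R 4.3.3 and Python 3.11.15 with scipy 1.17.1, matplotlib 3.10.9 for plots, numpy 2.4.6, and pandas 2.3.3.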

Additional observations from a re-analysis of the deposited data

How the results depend on the processing

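The shSrsf3 differences of *Sorbs3* kept their direction and passed under all alternatives run, with log2 fold changes of 0.23 to 0.42 without ligand, 0.45 to 0.56 with ligand, and 0.37 to 0.49 on average. The *Sorbs2* ligand effect in shSrsf3 cells passed with DESeq2 (0.17). Averaged over lines it passed with DESeq2 (0.13), RLE factors (0.13), no filter (0.12), equal depth (0.14), and the replicate block (0.12), and was 0.10 to 0.13 with each sample left out. The *Sorbs3* ligand effect in scramble cells passed without the filter (-0.17) and was -0.23 to -0.11 with each sample left out. The cause of these changes was not tested. No result for *Sorbs2* or *Sorbs3* reversed. Deviations of same-numbered samples correlated by -0.14 to 0.20, with a median of -0.001 against -0.011 for other pairs. Of 12 samples, 6 correlated best with a sample of their own number. These values do not establish a pairing by replicate number and cannot exclude it. The replicate block changed 1 call, given above.

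At a fold change of 2 or more, 1 and 1 partners, 1 and 1 focal adhesion genes, 0 and 1 SH3 adaptors, and 2 and 2 Z-disc and stress fiber genes passed in either direction without and with ligand, beside 5.75% and 5.42% of all tested genes. In a window of 1 Mb around *Sorbs2*, 5 and 4 of 18 tested genes rose, *Gm45457* included, and 6 and 4 fell. Among all tested genes, 22.2% and 20.3% rose and 23.7% and 20.7% fell. Divided by the median length of coding transcripts, the *Sorbs2* share was 17.5%, 20.1%, 39.7%, and 41.7% in scramble -PDGF-AA, scramble +PDGF-AA, shSrsf3 -PDGF-AA, and shSrsf3 +PDGF-AA samples. Of all genes, 608 passed upon stimulation in scramble cells (243 to 1472 with a sample left out, over 1.5 times from 608 without scramble -PDGF-AA replicate 2 or 3 or scramble +PDGF-AA replicate 1 or 3, 1289 unfiltered, 247 with 6 samples) and 85 in shSrsf3 cells (23 to 168 with a sample left out, over 1.5 times from 85 without scramble -PDGF-AA replicate 3, shSrsf3 -PDGF-AA replicate 1 or 2, or shSrsf3 +PDGF-AA replicate 2, 374 unfiltered, 201 with 6 samples, 210 with DESeq2, 231 without samples of lower mapping). Depth limits *Gm45457*, whose log2 fold change of 3.23 without ligand had an SE of 0.659.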
